A study of Mus musculus with 12 samples.

Results

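Transcripts of 45 genes of the peroxisome were followed in the livers of 12 mice. The genes were taken by name from a fixed list, and comprise 13 Pex genes, which encode peroxins, 27 genes of peroxisomal enzymes and 5 genes of transporters and other membrane proteins. All 45 were among the 57180 genes of the deposited table, and 44 passed the filter on low counts, among 19350 genes in all. Dao, which encodes D-amino acid oxidase, was the gene not tested, with at most 1 count in any liver.

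All 12 mice were Csa-/- (the annotation lists Csa as Ercc8), and all had received AAV9-CSA, a vector carrying human CSA cDNA, by injection into the brain ventricles as newborns. The transgene was driven by the CBA promoter, which is active in many cell types. The KO mice were CX animals, killed at a humane endpoint set by hunched posture and tremor. The Het mice were treated littermate controls of matched age, and the age of each mouse was not given in the sources used here. The study's methods write KO as Csa-/- Xpa+/+ and Het as Csa-/- Xpa+/-, whereas CX mice are described elsewhere in the study as lacking Xpa too, so the mice were grouped here by the names KO and Het. Each genotype had 3 females and 3 males, and single mice are named by genotype, sex and number. Because KO mice were sick and Het mice were not, genotype and terminal illness cannot be told apart.

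Peroxisomes are small organelles that shorten very-long-chain, branched-chain and dicarboxylic fatty acids, complete bile acid side chains, make the first steps of ether lipid synthesis and break down hydrogen peroxide, glyoxylate and urate. Peroxins build the organelle. Some of them insert its membrane proteins, others carry finished enzymes across the membrane and return the carrier to the cytosol, and the Pex11 family helps peroxisomes to divide. In rodent liver many of these genes are known targets of PPARα, a nuclear receptor for fatty acids that binds DNA with RXR at direct repeats of AGGTCA spaced by 1 base (DR1).

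Each liver had 30044812 to 43634073 counts in genes. Levels are given as CPM (counts scaled to a common library size), in order of mouse number. A gene is called higher or lower in KO where edgeR's quasi-likelihood test gave it an adjusted p (Benjamini-Hochberg, over all 19350 genes tested) under 0.05. SE is the standard error of a log2 fold change. KO_F_108 stood apart from the other livers in these genes, and several results are also given without it. Xpa, which encodes a damage recognition protein of nucleotide excision repair, was at 3.10, 3.55 and 3.74 CPM in Het females, 6.34, 5.99 and 5.57 in Het males, 1.08, 1.83 and 0.992 in KO females and 1.18, 1.14 and 1.25 in KO males. All KO livers lay below all Het livers, with a log2 fold change of -1.83 (SE 0.163, adjusted p = 4.15e-05). This is the direction of KO mice lacking Xpa, and not that of KO as Xpa+/+ against Het as Xpa+/-. The genotypes themselves were not tested here. Ercc8, the gene deleted in every mouse, was at 7.16 ± 1.40 CPM in Het and 22.9 ± 8.81 in KO livers (mean ± SD, n = 6), and the part of human transgene reads in this value was not tested.

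Many peroxisomal transcripts were lower in KO livers. With both sexes together, 19 of the 44 tested genes (43.2%) were called lower, where 10.2% of all genes were, and 1 was called higher (Acox2), where 12.2% of all genes were. The median log2 fold change was -0.40 over these genes and 0.02 over all genes tested. Of the 24 genes not called, 18 had a negative log2 fold change. A call that misses the threshold does not show that a gene was unchanged, and in bulk liver fewer cells of a type and less RNA per cell cannot be told apart. In 13 genes every KO liver lay below every Het liver, and in Acox2 every KO liver lay above. Over all genes the genotypes did not overlap in 4.64% with KO lower and in 4.72% with KO higher. Without KO_F_108, 17 genes were called lower and 2 higher (Acox2 and Pxmp2, the latter also called higher without Het_M_119).

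**Figure D1:**
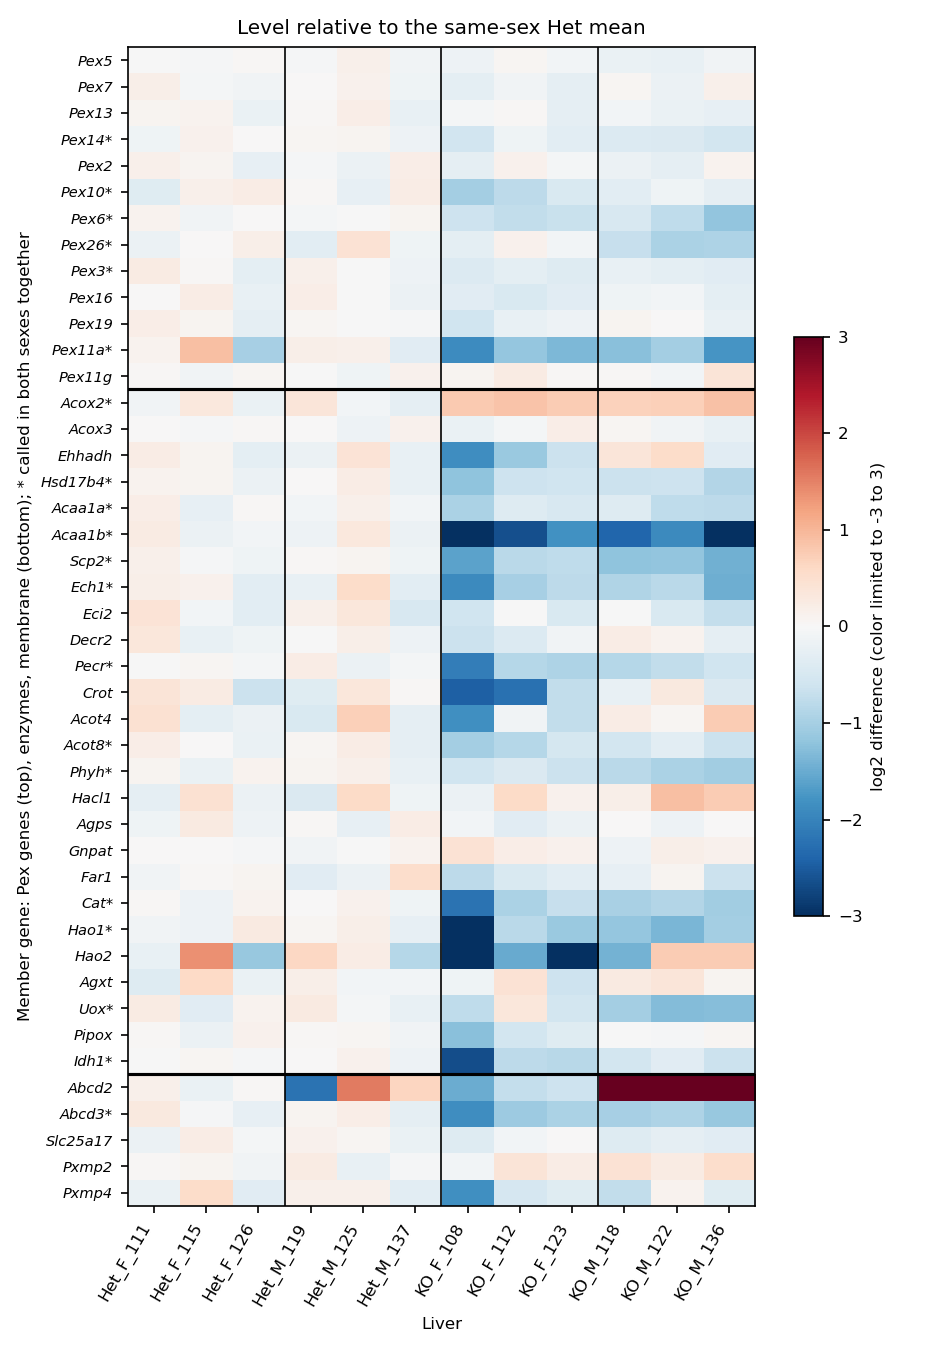
Level of each of the 44 tested genes (rows) in each of the 12 livers (columns), as the log2 CPM minus the mean of the 3 Het livers of the same sex. Blue is lower and red higher, colors are limited to -3 and 3, and an asterisk marks the 20 genes called with both sexes together. Most of the enzyme rows are blue in the KO columns, and KO_F_108 is the darkest of them.

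Pex genes and enzymes were called lower in equal shares, and the enzymes had the lower median. Of the Pex genes 6 of 13 were called lower (46.2%), with a median log2 fold change of -0.28. Of the 26 tested enzymes 12 were called lower (46.2%), with a median of -0.64, and 1 was called higher. Without KO_F_108 the median was -0.30 over the Pex genes and -0.59 over the enzymes. When single livers were left out, the equal shares held only without Het_M_137 (6 Pex genes and 12 enzymes). Leaving out any other liver gave 3 to 5 Pex genes and 11 to 14 enzymes, with 3 and 11 without KO_M_136. At an adjusted p under 0.01, 2 Pex genes and 9 enzymes were called lower. Of the 5 membrane protein genes 1 was called lower. In CPM summed over each class, the Pex genes came to 661 ± 50.05 in Het and 529.9 ± 32.9 in KO livers, a ratio of 0.801. The summed enzymes came to 11741 ± 1801 in Het and 6624 ± 1332 in KO livers, a ratio of 0.564. In both sums every KO liver lay below every Het liver. The enzymes were also the more abundant transcripts, with a median of 78.1 TPM (transcript number scaled to one total per library, a level per length) in Het livers against 15.5 TPM for the Pex genes. Across the 44 genes the Het TPM and the log2 fold change had a Spearman's rho of -0.37. It was -0.36 over the enzymes and 0.14 over the Pex genes. The Het livers enter both the TPM and the fold change, so their spread alone can push rho below 0. Genes measured in the same livers are not independent, and no p is given.

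**Figure D2:**
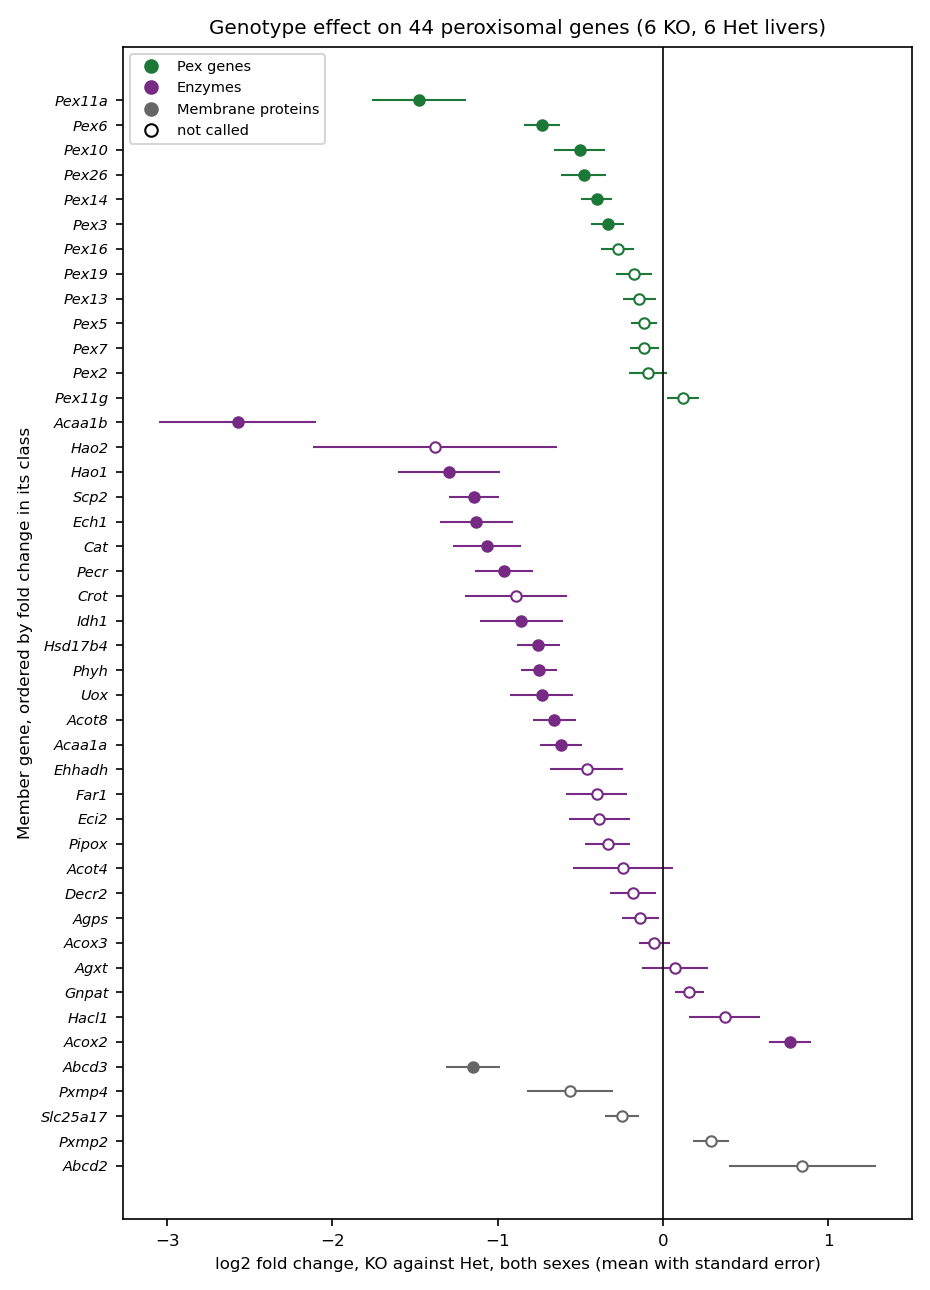
Log2 fold change of KO against Het with its standard error for the 44 tested genes, both sexes together, ordered within the Pex genes, enzymes and membrane proteins. Filled points are called. Acaa1b is lowest at -2.57, and Acox2 at 0.77 is the filled point above 0.

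Among the peroxins, the import receptors were not called, and 1 or 2 genes were called lower in each of docking, receptor ubiquitination, receptor export, membrane protein insertion and division. Pex5 and Pex7, the cytosolic receptors that carry enzymes with the common and the rarer import signal, were close to the Het level, with log2 fold changes of -0.12 (adjusted p = 0.321) and -0.11 (adjusted p = 0.397). Pex5 lay between 102 and 138 CPM in Het and between 93.1 and 117 in KO livers. Within the sexes, Pex5 overlapped in females and narrowly did not in males (KO at most 116.8, Het at least 117.1 CPM). Pex7 overlapped in males and narrowly did not in females (KO at most 53.8, Het at least 54.1 CPM). At the docking complex, where loaded receptors meet the membrane, Pex13 differed by -0.14 (adjusted p = 0.325), and Pex14 was called lower. Pex14 was at 34.3, 41.4 and 38.0 CPM in Het females, 40.8, 41.3 and 35.2 in Het males, 25.4, 34.7 and 30.2 in KO females and 29.4, 28.8 and 26.5 in KO males. Its genotypes overlapped only through KO_F_112 and Het_F_111, and its log2 fold change was -0.40 (SE 0.0939, adjusted p = 0.0112).

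Pex2 and Pex10 encode RING subunits of the ubiquitin ligase that marks the import receptor for return. Pex10, the Pex gene with the lowest TPM in Het livers (2.06 ± 0.353, n = 6), was at 3.44, 4.87 and 5.12 CPM in Het females, 4.24, 3.48 and 4.83 in Het males, 2.14, 2.54 and 3.19 in KO females and 3.31, 3.79 and 3.42 in KO males. The females did not overlap and the males did, and the log2 fold change was -0.51 (SE 0.154, adjusted p = 0.0348). The call was lost without Het_F_115, Het_F_126, Het_M_119, Het_M_137, KO_F_108, KO_F_112, KO_M_118 or KO_M_136, with adjusted p from 0.0573 to 0.0733. Pex2 was not called, with a log2 fold change of -0.09 (adjusted p = 0.604).

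Both genes of receptor export were called lower. Pex6 encodes an AAA ATPase that pulls the receptor out of the membrane, and Pex26 encodes the protein that anchors it there. Pex6 (chromosome 17 from 47022372 to 47038693 in GRCm39) was at 76.5, 65.4 and 71.2 CPM in Het females, 72.6, 74.7 and 79.5 in Het males, 45.8, 42.4 and 44.8 in KO females and 54.2, 44.7 and 33.2 in KO males. All KO livers lay below all Het livers by a wide gap in both sexes, and the log2 fold change was -0.73 (SE 0.109, adjusted p = 0.00106), about 0.603 times the Het level. The call held in females (-0.68 (adjusted p = 0.0203)) and in males (-0.78 (adjusted p = 0.0129)). Pex26 was at 19.0, 21.5 and 24.4 CPM in Het females, 29.4, 49.4 and 33.6 in Het males, 17.4, 23.6 and 20.5 in KO females and 22.6, 18.9 and 19.3 in KO males. Its values overlapped in females and not in males, where the Het livers were higher than the Het females. Over both sexes the log2 fold change was -0.48 (SE 0.135, adjusted p = 0.0248), and the call was lost without Het_F_126, KO_M_122 or KO_M_136, with adjusted p from 0.0504 to 0.0517.

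Among the genes that insert membrane proteins, Pex3, the membrane anchor for the chaperone Pex19, was called lower. It was at 27.4, 23.5 and 18.8 CPM in Het females, 23.9, 21.4 and 19.3 in Het males, 17.3, 18.8 and 17.6 in KO females and 18.3, 17.5 and 16.9 in KO males. KO livers spanned 16.9 to 18.8 CPM and every one lay below every Het liver, although the lowest Het value, 18.8 CPM in Het_F_126, rounded to the highest KO value. The log2 fold change was -0.33 (SE 0.0999, adjusted p = 0.0323), and the call was kept only without Het_F_126, Het_M_137 or KO_F_112. Leaving out any other liver gave adjusted p from 0.0508 to 0.0704. Pex16, which helps membrane proteins reach the organelle, missed the threshold at -0.28 (adjusted p = 0.0598) and was called lower without Het_F_126 or Het_M_137. It was also called lower with counts scaled from TPM, length-scaled counts, DESeq2 and limma on log2(TPM + 1). Adjusted p ran from 0.0306 to 0.0472 in these fits. Pex19, the most abundant peroxin transcript here at 45.2 ± 7.92 TPM in Het livers (n = 6), differed by -0.18 (adjusted p = 0.264).

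Pex11a had the largest fall of the peroxins. It belongs to the family that elongates the membrane before division and is the member known to respond to PPARα. Pex11a (chromosome 7 from 79385705 to 79392879 in GRCm39) was at 66.3, 114.9 and 31.1 CPM in Het females, 60.3, 59.4 and 41.9 in Het males, 16.7, 27.5 and 24.4 in KO females and 22.4, 26.3 and 15.5 in KO males. The Het females were widely spread, from 31.1 to 114.9 CPM, yet all KO livers lay below all Het livers. The log2 fold change was -1.48 (SE 0.283, adjusted p = 0.00508), or 0.359 times the Het level. Its relative Pex11g was not called and lay on the other side of 0, at 0.12 (adjusted p = 0.402). Of the aligned coding bases of Pex11a and Pex11g 60.8% were identical, or 48.5% with gaps counted.

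In the core of β-oxidation, 4 of 7 genes were called lower and Acox2 was called higher. Scp2 encodes sterol carrier protein and, in its long form, the thiolase for branched chains, and it had the highest TPM of all 45 genes in Het livers (1246 ± 154, n = 6). Scp2 was at 1844, 1608 and 1517 CPM in Het females, 2953, 3029 and 2624 in Het males, 539, 947 and 973 in KO females and 1246, 1264 and 1057 in KO males. No values overlapped within or across the sexes, although the gap between KO males and Het females was small. The log2 fold change was -1.14 (SE 0.150, adjusted p = 5.11e-04), and it was called in females (-1.01 (adjusted p = 0.0146)) and in males (-1.27 (adjusted p = 0.00524)). Hsd17b4, the bifunctional protein for branched chains and bile acid precursors, fell by 0.76 on the log2 scale (adjusted p = 0.00238), and its genotypes did not overlap.

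Both copies of the straight-chain thiolase, the last enzyme of the cycle, were called lower. Acaa1b (chromosome 9 from 118977091 to 118986161 in GRCm39) was at 853, 637 and 670.4 CPM in Het females, 831, 1144 and 817 in Het males, 19.7, 114 and 204 in KO females and 178, 243 and 82.4 in KO males. KO livers reached at most 243 CPM and Het livers started at 637, and the log2 fold change of -2.57 (SE 0.476, adjusted p = 0.00490) was the most negative of the 44 genes. Acaa1a on the same chromosome (119168742 to 119182956) fell by 0.62 on the log2 scale (adjusted p = 0.00589), from 172 ± 25.1 to 111.9 ± 19.8 CPM (n = 6). The coding sequences of these copies were identical at 96.5% of aligned bases, or 81.4% with gaps counted. Reads may therefore be split between the copies, and the share of each is uncertain.

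Acox2, an acyl-CoA oxidase for branched chains and bile acid intermediates, moved the other way. Acox2 (chromosome 14 from 14210395 to 14244262 in GRCm39) was at 135, 183 and 126.3 CPM in Het females, 223, 163 and 145 in Het males, 252, 266 and 249 in KO females and 281, 286 and 323 in KO males. Every KO liver lay above every Het liver, and the log2 fold change was 0.77 (SE 0.127, adjusted p = 0.00195), or 1.70 times the Het level. It was 0.79 (adjusted p = 0.0207) in females and 0.75 (adjusted p = 0.0284) in males. Acox3, a related oxidase, was near the Het level at -0.05 (adjusted p = 0.718), and Ehhadh, the bifunctional enzyme for straight chains, was at -0.46 (adjusted p = 0.152) over both sexes.

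Of the 4 genes grouped as auxiliary enzymes of β-oxidation, 2 were called lower. Ech1, Eci2 and Decr2 reshape unsaturated chains before they can be shortened. Pecr, a trans-2-enoyl-CoA reductase, was at 88.1, 91.5 and 85.0 CPM in Het females, 118.8, 90.9 and 98.7 in Het males, 20.8, 48.3 and 46.4 in KO females and 56.2, 61.5 and 67.7 in KO males. KO_F_108 was the lowest, but the other KO livers were also below all Het livers, and the log2 fold change was -0.96 (SE 0.175, adjusted p = 0.00322). Ech1, a dienoyl-CoA isomerase also found in mitochondria, was at 283, 273 and 199 CPM in Het females, 189, 323 and 179 in Het males, 66.2, 124 and 145 in KO females and 118.2, 127 and 80.1 in KO males. Here too the genotypes did not overlap, and the log2 fold change was -1.13 (SE 0.220, adjusted p = 0.00487). Eci2, an enoyl-CoA isomerase, and Decr2, a dienoyl-CoA reductase, were not called, at -0.39 (adjusted p = 0.154) and -0.18 (adjusted p = 0.373).

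The enzymes that hand acyl groups in and out of the organelle differed among themselves. Acot8, a thioesterase that frees fatty acids from CoA, was at 13.8, 12.1 and 10.4 CPM in Het females, 12.2, 13.7 and 9.76 in Het males, 5.86, 6.59 and 8.28 in KO females and 7.97, 9.38 and 7.54 in KO males. All KO livers lay below all Het livers by a small gap, and the log2 fold change was -0.66 (SE 0.130, adjusted p = 0.00481). Crot, which moves shortened chains onto carnitine for export to mitochondria, was at 807, 738 and 397 CPM in Het females, 347, 563 and 462 in Het males, 113, 131 and 369.6 in KO females and 387, 546 and 333 in KO males. KO_F_108 and KO_F_112 were far below the other livers, and of the KO males KO_M_136 lay just below the lowest Het liver and the others within the Het range. Its log2 fold change was -0.89 (SE 0.307, adjusted p = 0.0593), and it was called lower without Het_F_126 or KO_F_123, at -1.03 and -1.27. DESeq2 on all livers also called Crot lower (-0.90 (adjusted p = 0.0153)). Acot4, a thioesterase for dicarboxylic chains, differed by -0.24 (adjusted p = 0.601).

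For α-oxidation, which removes 1 carbon from branched chains such as phytanic acid, the first enzyme was called lower and the next was not. Phyh, the phytanoyl-CoA hydroxylase, was at 912, 747 and 931 CPM in Het females, 1416, 1484 and 1155 in Het males, 571, 635 and 545 in KO females and 765, 699 and 651 in KO males. The sexes did not overlap between genotypes when taken separately, and together KO_M_118 lay just above Het_F_115. The log2 fold change was -0.75 (SE 0.108, adjusted p = 8.28e-04). Hacl1, the lyase that cleaves the hydroxylated product, was at 222, 372 and 238 CPM in Het females, 123.1, 251 and 152 in Het males, 239, 401 and 295 in KO females and 190.2, 312 and 285 in KO males. Its genotypes overlapped in both sexes, and its log2 fold change was 0.37 (SE 0.215, adjusted p = 0.234).

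The 3 genes of ether lipid synthesis were not called. Far1, which makes the fatty alcohol, was at 4.001, 4.44 and 4.60 CPM in Het females, 2.57, 2.89 and 4.77 in Het males, 2.48, 3.16 and 3.46 in KO females and 2.74, 3.497 and 2.09 in KO males. The females did not overlap and the males did, and the log2 fold change was -0.40 (SE 0.185, adjusted p = 0.140). Gnpat, the acyltransferase of the first step, was at 33.4, 33.4 and 32.4 CPM in Het females, 32.8, 35.0 and 37.6 in Het males, 44.8, 37.8 and 36.3 in KO females and 31.7, 39.6 and 38.5 in KO males. The KO females were above the Het females and the males overlapped, with a log2 fold change over both sexes of 0.16 (SE 0.0868, adjusted p = 0.210). Agps, the enzyme of the step after it, differed by -0.14 (adjusted p = 0.410).

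Of the oxidases, catalase and other enzymes, 4 of 7 tested genes were called lower. Cat encodes catalase, which breaks down the hydrogen peroxide made by the oxidases, and was at 2016, 1759.6 and 2099.6 CPM in Het females, 2809, 3012 and 2527 in Het males, 421, 1005 and 1204 in KO females and 1417, 1503 and 1348 in KO males. KO_F_108 was lowest, with all KO livers below all Het livers, and the log2 fold change was -1.06 (SE 0.206, adjusted p = 0.00447). Hao1 encodes glycolate oxidase, a liver enzyme that makes glyoxylate, and was at 110.5, 107 and 142 CPM in Het females, 218, 237 and 175 in Het males, 13.2, 67.4 and 55.0 in KO females and 93.4, 80.4 and 103 in KO males. Again KO_F_108 was far below the rest and the genotypes did not overlap, and the log2 fold change was -1.29 (SE 0.309, adjusted p = 0.0142). Agxt, which clears glyoxylate in the same organelle, differed by 0.07 (adjusted p = 0.826). Uox, urate oxidase, fell by 0.73 on the log2 scale (adjusted p = 0.0178), and KO_F_112 with 1306 CPM was above the highest Het female. Idh1, the NADP isocitrate dehydrogenase of cytosol and peroxisome, fell by 0.86 (adjusted p = 0.0308). The call of Idh1 was lost without Het_F_115, Het_M_119, Het_M_125, KO_M_118 or KO_M_136, with adjusted p from 0.0509 to 0.0634. Pipox, an oxidase of pipecolic acid and sarcosine, was not called over both sexes, at -0.34 (adjusted p = 0.0939), and was called lower without KO_F_123, at -0.44.

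Among the membrane proteins, Abcd3 was called lower. It encodes PMP70, the abundant transporter that brings branched and dicarboxylic acyl groups into the peroxisome, and was at 615, 485 and 419.6 CPM in Het females, 551, 590.4 and 428 in Het males, 136.7, 234 and 259 in KO females and 259, 273 and 235 in KO males. All KO livers lay below all Het livers by a wide gap, and the log2 fold change was -1.15 (SE 0.164, adjusted p = 7.83e-04), or 0.450 times the Het level. Pxmp2, a pore protein, was at 72.6, 75.5 and 65.9 CPM in Het females, 89.1, 63.8 and 73.5 in Het males, 67.4, 93.3 and 83.1 in KO females and 101, 88.3 and 107 in KO males. The genotypes overlapped in both sexes, and the log2 fold change was 0.29 (SE 0.110, adjusted p = 0.0796). Slc25a17, a cofactor carrier, and Pxmp4, a membrane protein, were not called, at -0.25 (adjusted p = 0.105) and -0.56 (adjusted p = 0.146).

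**Figure D3:**
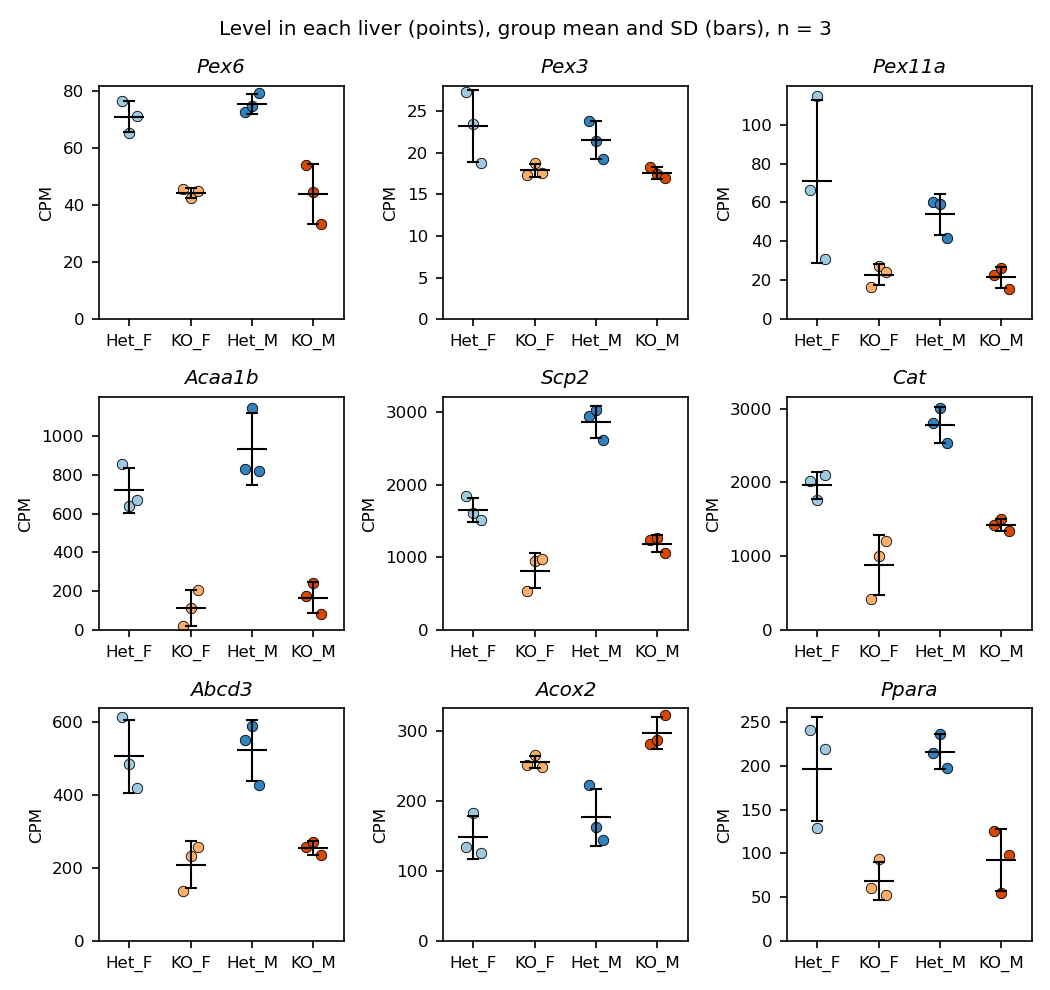
CPM of 8 peroxisomal genes and Ppara in each liver (points), by genotype and sex, with the mean and SD of 3 mice (bars) and axes from 0. KO points lie below Het points of the same sex in all panels but Acox2, where they lie above.

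Taken by sex, more genes were called in females than in males, but the sexes were not shown to differ. In females 16 of 44 were called lower and 1 higher, where 5.10% and 5.94% of all genes were, and the median log2 fold change was -0.54. In males 7 were called lower and 2 higher, where 2.98% and 4.47% of all genes were, and the median was -0.27. The log2 fold change had the same sign in both sexes for 36 of 44 genes and was more negative in females for 29, and Spearman's rho between the sexes across the genes was 0.49. The enzyme median was -0.72 in females and -0.35 in males, and the Pex median was -0.32 in females and -0.19 in males. These counts were sensitive to single livers. In females the genes called lower numbered 4 without Het_F_111, 5 without KO_F_112 and 8 without either Het_F_115 or KO_F_108. Without KO_F_108 the female median was -0.21 over the Pex genes and -0.52 over the enzymes. In males they numbered 3 without Het_M_125 or KO_M_136, 4 without Het_M_119, KO_M_118 or KO_M_122 and 15 without KO_F_108, a female liver that enters the fit over all groups. Without KO_M_136 the order of the classes in males turned round, with a median of -0.21 over the enzymes and -0.24 over the Pex genes.

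The test of the difference between the sexes called none of the 44 genes (0.0465% of all genes, or 9, were called). At an unadjusted p under 0.05 there were 6, namely Pex26, Ehhadh, Crot, Uox, Pipox and Abcd2, and DESeq2 and limma on log2(TPM + 1) each called 1 (Abcd2). Ehhadh was at 563, 507 and 393 CPM in Het females and 134, 222 and 309 in KO females, which did not overlap (-1.14 (adjusted p = 0.0400)). In males it was at 262, 396 and 253 CPM in Het and 384, 437 and 236 in KO livers, which overlapped (0.21 (adjusted p = 0.728)). The difference of the effects was 1.35 (SE 0.440, adjusted p = 0.434). In females Ehhadh, Crot, Pipox and Hao2 were called lower although they were not called over both sexes, and in males Uox fell by 1.21 on the log2 scale (adjusted p = 0.0220) against -0.26 (adjusted p = 0.561) in females.

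**Figure D4:**
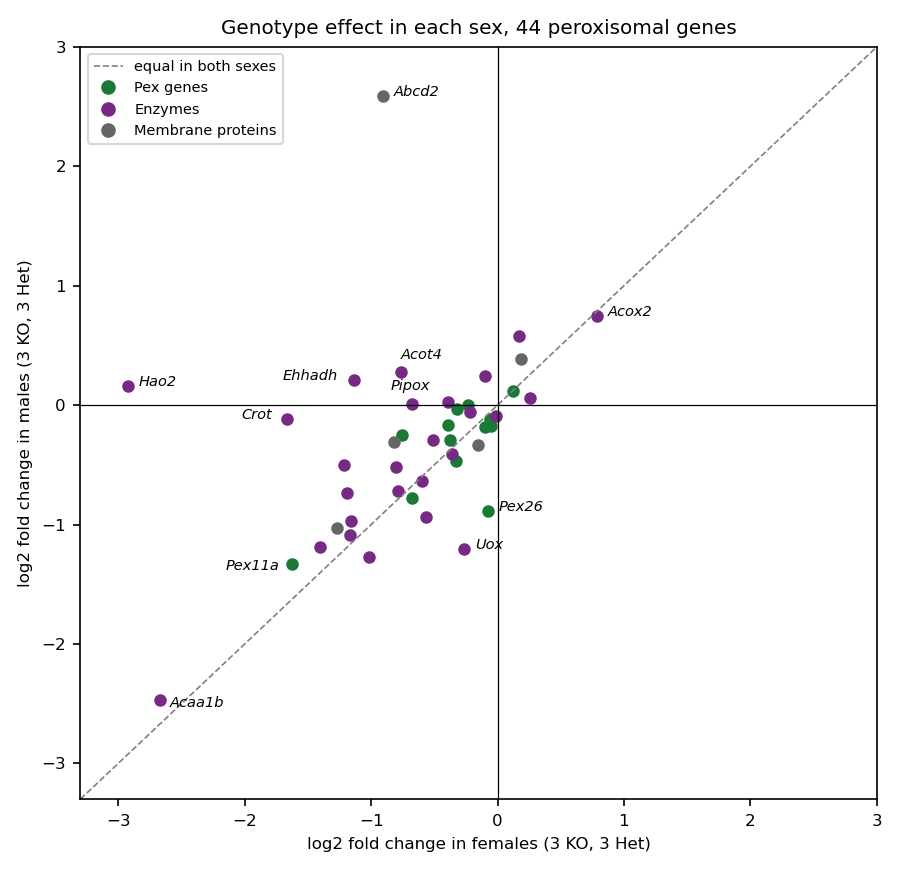
Log2 fold change of KO against Het in females (horizontal) and in males (vertical) for the 44 tested genes. Points on the dashed line have equal values in both sexes, most points lie below 0 on both axes, and Abcd2 at -0.91 and 2.59 is farthest from the line.

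Abcd2 and Hao2 had the largest fitted sex differences in Het livers among the 44 genes. Abcd2 (chromosome 15 from 91029881 to 91076310 in GRCm39) encodes a transporter of very-long-chain acyl-CoA related to the adrenoleukodystrophy protein, and was at 105, 82.5 and 96.8 CPM in Het females, 1.17, 16.8 and 8.83 in Het males, 33.4, 57.5 and 60.9 in KO females and 47.2, 60.1 and 55.2 in KO males. Het females were highest, Het males lowest and the KO livers of both sexes lay between them without overlap, at 50.6 ± 15.01 CPM in KO females and 54.1 ± 6.50 in KO males (n = 3 each). The log2 fold change was -0.91 (adjusted p = 0.376) in females and 2.59 (adjusted p = 0.0446) in males. The difference between these effects was 3.499 with an unadjusted p of 0.00335 and an adjusted p of 0.348, and the adjusted p was 0.0385 without Het_M_119, the lowest Het male. The sex difference, males against females, was -3.40 (adjusted p = 0.0598) in Het and 0.10 (adjusted p = 0.967) in KO livers. The call of Abcd2 in males was kept only without Het_M_119, Het_M_125 or KO_F_108 and otherwise reached an adjusted p of up to 0.122.

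Hao2, a hydroxyacid oxidase for longer chains, was at 10.2, 31.0 and 5.38 CPM in Het females, 0.367, 0.260 and 0.0960 in Het males, 0.744, 4.15 and 1.13 in KO females and 0.0453, 0.408 and 0.406 in KO males. Males had next to no Hao2 transcript in either genotype, and Het females were higher than KO females without overlap. Hao2 was the 1 gene of 44 called for sex in Het livers, where 0.920% of all genes were, with a male to female log2 difference of -5.72 (SE 0.960, adjusted p = 0.0213). The call was lost without Het_M_119, Het_M_125 or Het_M_137. In KO livers none of the 44 was called for sex (0.0517% of all genes were), although 8 had an unadjusted p under 0.05. DESeq2 also called 0, and the Hao2 difference in KO livers was -2.63 (adjusted p = 0.278).

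Liver by liver, both classes were low in all KO animals. Relative to the Het mean of the same sex, the mean over the 26 enzymes was -1.39 in KO_F_108, -0.56 in KO_F_112, -0.62 in KO_F_123, -0.44 in KO_M_118, -0.30 in KO_M_122 and -0.52 in KO_M_136 on the log2 scale. Over the 13 Pex genes it was -0.50, -0.25, -0.34, -0.29, -0.36 and -0.41 in the same order. Enzymes lay lower than Pex genes in 5 of 6 KO livers, the exception being KO_M_122. Het livers lay between -0.14 and 0.15 in both classes.

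**Figure D5:**
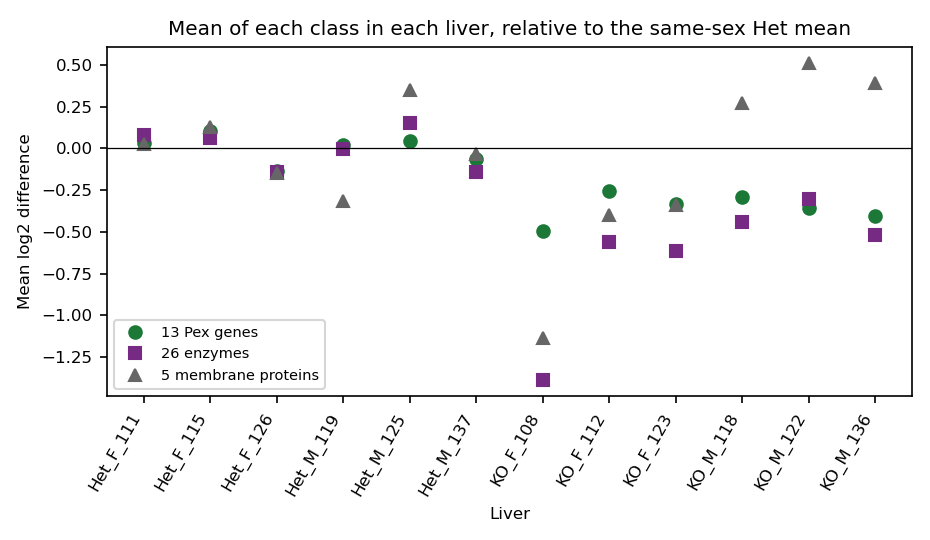
Mean log2 difference from the same-sex Het mean for the 13 Pex genes, 26 enzymes and 5 membrane proteins in each of the 12 livers. Pex genes and enzymes are below 0 in all 6 KO livers, and membrane proteins are above 0 in the KO males, where Abcd2 is higher.

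Of 27 tested genes of a further list of peroxisomal genes, 12 were called lower (44.4%), where 10.2% of all genes were. Another 2 were called higher (7.41%), where 12.2% of all genes were, and the median log2 fold change was -0.31. Nudt7, a CoA diphosphatase, changed by -3.19 (adjusted p = 1.24e-04), Lonp2, the peroxisomal Lon protease, by -1.15 (adjusted p = 6.70e-04) and Ephx2, an epoxide hydrolase, by -0.93 (adjusted p = 9.86e-04). None of 9 tested genes of peroxisome division and pexophagy (the removal of peroxisomes by autophagy) was called. In that list 1 gene had an unadjusted p under 0.05, Trim37, a ubiquitin ligase, at 0.30 (adjusted p = 0.0805). Dnm1l, the dynamin that cuts the membrane, was at -0.18 (adjusted p = 0.261) and Tmem135 at -0.13 (adjusted p = 0.338).

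Ppara transcript was lower in KO livers too. It was at 241, 129 and 219 CPM in Het females, 214, 237 and 197 in Het males, 59.97, 93.1 and 53.1 in KO females and 125.1, 54.4 and 98.0 in KO males. All KO livers lay below all Het livers by a small gap, between 125.1 and 129 CPM, and the log2 fold change was -1.37 (SE 0.225, adjusted p = 0.00207). Of 12 genes of PPARα and its cofactors 3 were called lower, the others being Ncor1, a corepressor (-0.34 (adjusted p = 0.0104)), and Rxra, the DNA-binding partner (-0.37 (adjusted p = 0.0264)). Of 26 PPARα targets outside the peroxisome 18 were called lower (69.2%) and 1 higher (3.85%), where 10.2% and 12.2% of all genes were. Their median log2 fold change was -0.76. Acsl1, which activates fatty acids, changed by -1.55 (adjusted p = 5.21e-04), Cyp4a32, an ω-hydroxylase, by -1.22 (adjusted p = 6.70e-04) and Retsat, a retinol saturase, by -1.61 (adjusted p = 0.00306).

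DR1 motifs were searched in the RefSeq promoters of GRCm38.p6, a build older than that of the counts, from 250 bases before to 50 after each start. Both strands were read, with at most 2 mismatches over both repeats. Of the 45 genes 40 had a promoter in the table, with 48 windows in all, and Abcd2, Hsd17b4, Pex19, Pex2 and Pxmp2 had none. A match was present in 3 of 48 windows (6.25%) and in 1268 of all 32851 windows (3.86%), and none of the 14 windows of Pex genes had a match. No window of the 45 genes matched with at most 1 mismatch, against 0.554% of all windows. The 3 matches are shown because they stand in an enzyme gene called lower (Cat), in the gene called higher (Acox2) and in a gene not called (Acot4). Capitals mark the match within 8 bases on either side, and each sequence is read 5′ to 3′ on the strand of its gene.
Cat, 204 bases before the start, chr2:103485337-103485365, minus strand: actctcagAGGTCAGAGAACAccagcagg
Acox2, after the start, chr14:8258810-8258838, minus strand: gctgtcccAGGACAGAGGTGAgtcaagag
Acot4, 13 bases before the start, on the opposite strand, chr12:84038358-84038386, plus strand: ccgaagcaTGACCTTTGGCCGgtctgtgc

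Cell type markers were set beside these results, and the 3 genes of smallest p are named from each list with their log2 fold changes. Over all genes tested 12.2% were called higher and 10.2% lower. Of 11 tested hepatocyte markers 2 were called higher (18.2%) and 1 lower (9.09%). The summed level of these markers was 76416 to 100953 CPM in Het and 99519 to 160700.0 in KO livers. The values of smallest p were Ttr (-0.81 (adjusted p = 0.00422)), Ahsg (0.51 (adjusted p = 0.0101)) and Fgb (0.61 (adjusted p = 0.0260)), which encode plasma proteins. Of 8 Kupffer cell and macrophage markers 4 were called higher, with Marco (2.98 (adjusted p = 0.00618)), Vsig4 (0.87 (adjusted p = 0.0103)) and Cd68 (0.82 (adjusted p = 0.0273)) first and with sums of 121.4 to 319 CPM in Het and 167 to 511 in KO livers. Stellate and fibroblast markers were called lower in 2 of 8, with Reln (-1.75 (adjusted p = 1.88e-04)), Lrat (-1.89 (adjusted p = 2.38e-04)) and Dcn (-0.44 (adjusted p = 0.0608)) first and with sums of 250.2 to 457.5 CPM in Het and 128.2 to 278.3 in KO livers. Endothelial markers were called lower in 4 of 8, with Fcgr2b (-1.23 (adjusted p = 0.00192)), Kdr (-0.99 (adjusted p = 0.00330)) and Clec4g (-0.83 (adjusted p = 0.00490)) first and with sums of 198.1 to 368.5 CPM in Het and 141.9 to 261.4 in KO livers. No marker of these 4 lists was at 0 in all livers.

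Cholangiocyte markers had 0 of 6 called by edgeR (0 at an unadjusted p under 0.05), with Krt7 (0.39 (adjusted p = 0.377)), Spp1 (-0.35 (adjusted p = 0.439)) and Epcam (-0.21 (adjusted p = 0.625)) first. Of 8 leukocyte markers 1 was called higher (12.5%), where 12.2% of all genes were. Those of smallest p were S100a8 (1.17 (adjusted p = 0.0299)), Cd8a (0.64 (adjusted p = 0.298)) and S100a9 (0.47 (adjusted p = 0.314)). Of 13 clock genes, whose levels follow the time of day, 1 was called lower (7.69%), where 10.2% of all genes were. The summed level of the clock genes was 309 CPM in the lowest Het female and 763 and 801 CPM in the others. Het males had 761 to 802 CPM, KO females 509 to 719 and KO males 566 to 848. The low count of calls therefore does not show that the livers were alike in clock genes. The clock genes of smallest p were Hlf (-0.87 (adjusted p = 0.00664)), Per1 (1.27 (adjusted p = 0.0564)) and Bmal1 (1.65 (adjusted p = 0.148)). The part of these changes in the results for peroxisomal genes was not tested.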

How the data were processed

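Ribosome-depleted, stranded total RNA of 12 livers was sequenced. The authors aligned reads with STAR 2.7.9a to GRCm39 with GENCODE M34 in an nf-core pipeline and estimated counts per gene with Salmon 1.10.1. The deposited estimated counts (12.0% not whole) were rounded, and the authors' scaled and length-scaled estimated counts and the deposited TPM, which keeps no depth, served as alternatives.

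Genes with at least 5 reads, scaled to the median library, in at least 3 livers were kept. After TMM scaling, edgeR 4.0.16 (R 4.3.3) was run with the study's settings (quasi-likelihood F test, robust, prior count 2) on the 4 group means over all 12 livers. The main contrast was the mean over the sexes of KO minus Het, and calls used a Benjamini-Hochberg adjusted p under 0.05 over 19350 genes. It called 4330 genes, more than the study reported for genotype at the same threshold. Standard errors came from the F statistic. The labels name each mouse as a separate sample. With 3 mice a group, precision is limited by their spread, and also by depth in genes of few counts, such as Hao2 in males. All pairs of livers differed beyond counting error, and none was a copy. The procedure was tested on simulated data. Coordinates come from GENCODE M39 on GRCm39 and promoters from RefSeq. Coding sequences were aligned with Biopython 1.88, and import signals in proteins were not analysed here.

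The genes, roles and other lists were chosen with earlier results of these data known. Values in each liver are given for Xpa, called Pex genes, the 2 genes of smallest p in each enzyme role and among membrane proteins, genes called higher in any contrast or called for sex. Those of Acaa1b, Ehhadh and Ppara were added after they were seen. From each other list the 3 genes of smallest p are named. The alternatives were unrounded counts, other count tables, filters, scalings, non-robust estimation, edgeR's older method, additive genotype and sex, DESeq2 1.42.0, limma 3.58.1 on log2(TPM + 1) and log2(TPM + 0.1), a threshold of 0.01 and leaving out each liver.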

Additional observations from a re-analysis of the deposited data

Results flagged for a closer look

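In 88 groups (44 genes in 6 Het and 6 KO livers), 7 had a liver that stood apart from the other 5 by Dixon's criterion, which chance gives in about 1 of 20 groups. Het_F_115 was the highest Het liver for Hao2 (31.0 CPM, the others at most 10.2), Agxt (549 CPM, the others at most 316) and Pxmp4 (99.9 CPM, the others at most 61.4). Het_F_111 was the highest Het liver for Decr2, at 267 CPM. KO_F_112 was the highest KO liver for Hao2 (4.15 CPM) and for Uox (1306 CPM, the others at most 793). KO_F_108 was the lowest KO liver for Abcd3, at 136.7 CPM, where the others were at 234 CPM or more. Hao2 groups pool the sexes, in which its level differs.

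In 2 genes all KO females lay below the mean log2 CPM of Het females while all KO males lay above that of Het males. For Abcd2 the effect in males minus that in females was 3.499 on the log2 scale (adjusted p = 0.348), and for Acot4 it was 1.04 (adjusted p = 0.619, edgeR's quasi-likelihood test).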

How the results depend on the processing

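Of the 20 genes called over both sexes, 16 kept their call and direction under all 27 alternatives but the threshold of 0.01. That threshold left 12 genes lower over both sexes, 2 of them Pex genes, 1 lower and 0 higher in females, 2 lower and 0 higher in males and 0 for sex in Het livers. No gene changed direction with its call. The genes that lost their call at 0.05 in some alternative were Pex3, Pex10, Pex26 and Idh1. Apart from leaving out livers, Pex3 lost it without a filter and with limma on log2(TPM + 0.1). Pex10 lost it without a filter and with scaling by library size alone, Pex26 with additive genotype and sex, and Idh1 without a filter. Counts within 1 sex moved more. Genes higher in females numbered 0 with counts scaled from TPM, length-scaled counts and limma on log2(TPM + 1) and log2(TPM + 0.1), and genes higher in males numbered 1 with scaled counts, length-scaled counts, no filter and limma on log2(TPM + 0.1). Genes lower in females numbered 9 without a filter, and those lower in males 14 with DESeq2 and 4 with limma on log2(TPM + 0.1). DESeq2 and limma on log2(TPM + 1) gave 1 call for the difference between the sexes. Calls for sex in Het livers numbered 2 with scaled counts, without robust estimation and with either limma fit, and 5 with DESeq2. The causes were not tested.

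Leaving out each liver gave 15 to 20 genes lower over both sexes (3 to 6 Pex genes, with 3 without KO_M_136, and 11 to 14 enzymes) and 1 to 2 higher. In females it gave 4 to 14 lower and 0 to 1 higher (0 without Het_F_111, Het_F_126, KO_F_108 or KO_F_112), and a Pex median of -0.35 to -0.21. In males it gave 3 to 15 lower and 0 to 2 higher (0 without Het_M_137, KO_M_118, KO_M_122 or KO_M_136). Calls for sex in Het livers ranged from 0 (without Het_M_137) to 3 (without KO_F_108), those in KO livers from 0 to 1 (without KO_F_123), and those for the difference between the sexes from 0 to 1 (without Het_M_119). A fit that leaves a group with 2 livers assumes that they vary like the other groups. No paired analysis was possible because the mouse numbers of the groups are not shared. Depth limits Dao and, in males, Hao2.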
